A study of Mus musculus with 6 samples.

Results

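The lysosome is the acidic compartment in which proteins, sugar chains and lipids are taken apart. Its soluble enzymes are proteases (the cathepsins and their relatives), glycosidases, sulfatases and lipid hydrolases, and its membrane is lined with heavily glycosylated proteins such as LAMP1 and LAMP2. Many genes of this system share a short promoter element through which the transcription factors TFEB and TFE3 raise their expression together. In lymphocytes and antigen-presenting cells, the same enzymes process antigens, mature granule contents and recycle receptors, and in osteoclasts RANKL is known to drive a lysosomal programme that includes cathepsin K and the acid phosphatase TRAP. The set described here holds 52 genes for lysosomal proteases, hydrolases, membrane proteins and regulators. They were chosen by name, with earlier results of these data known. All 52 had a probe set of their own among the 19938 genes tested. Where a gene had several probe sets, the one with the highest mean was used, and Arsb was the 1 member with more than 1.

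Expression was measured on Affymetrix arrays in CCR6+ group 3 innate lymphoid cells (ILC3s), lymphocytes that make IL-17 family cytokines in the gut, sorted from the small intestinal lamina propria of adult C57BL/6 mice. The RANKL-deficient group holds 3 arrays from mice in which the recombinase Cre acts on floxed Tnfsf11, the RANKL gene. The control group holds 3 arrays from Tnfsf11fl/fl mice, which carry the floxed alleles with no Cre named, so that Cre itself and the deletion cannot be told apart. The labels do not say whether each array came from 1 mouse, from pooled mice or from separate sorts. The p-values therefore measure the spread between these arrays, which may be technical. Values are deposited RMA values on the log2 scale, in which 1 unit is a doubling, and array values are listed below in the order of replicates 1, 2 and 3. As arrays give no read count, their number limits the precision.

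Tnfsf11, the targeted gene, had log2 values of 8.36, 8.65 and 8.52 on the RANKL-deficient arrays, against 8.76, 8.41 and 8.25 on the control arrays. The groups overlapped, with a difference of 0.035 (95% confidence interval −0.37 to 0.44), and since the position of the probe set relative to the deleted part is not given, the labels cannot be checked by it. The ILC3 markers measured were all above the median gene, and their mean log2 level was 9.71 to 9.84 on the RANKL-deficient arrays and 9.49 to 9.86 on the control arrays (13 of 16 listed markers). Among the arrays, control array 1 stood apart with the lowest mean correlation with the others across genes (0.960) and the smallest SD over genes (1.86), followed by control array 2 (0.970 and 1.93). The other 4 arrays had correlations of 0.975 to 0.977 and SDs of 1.99 to 2.01.

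No lysosomal gene passed the adjusted threshold of 0.05 in limma, and the lowest adjusted p among them was 0.245, for Ppt2. Over all genes, 0.00502% passed, which was the 1 gene Ccr2. At an unadjusted p under 0.05 there were 9 of the 52 lysosomal genes (17.3%, against 8.15% of all genes). Of these, 6 were higher in RANKL-deficient cells (11.5% of the 52, against 4.25% of all genes), namely Ppt2, Tpp1, Ctsd, Smpd1, Ifi30 and Gm2a. In the lower direction, 3 of 52 lay under this level (5.77%, against 3.9% of all genes), namely Ctss, Sgsh and Idua. The 3 RANKL-deficient arrays lay above all 3 control arrays for Ppt2, Tpp1 and Smpd1 (5.77% of members, against 5.28% of all genes) and below them for Ctss and Sgsh (3.85%, against 9.08% of all genes). The share of members that did not overlap was thus near or below that of all genes. The members were also better expressed than most genes: 46 of the 52 members had a mean above the median gene (log2 5.12), and of all genes above it 11.7% lay under an unadjusted p of 0.05, 7.82% higher and 3.87% lower. The 9 members under this p were all among those 46, which makes 19.6% of them, 13.0% higher and 6.52% lower. Of the 46, the RANKL-deficient arrays lay above all control arrays in 6.52% and below them in 4.35%. Over all genes above the median gene, these shares were 9.12% and 6.11%. Since the members were chosen with earlier results of these data known, shares set against all genes here and below only describe the set. The counts at an unadjusted p under 0.05 rested on single arrays. Without RANKL-deficient array 2, 1 member was higher and 0 lower. Without control array 1 or control array 2 there were 3 higher, and without RANKL-deficient array 1 or control array 3 there was 1 lower. The matching shares of all genes in those fits are not given here. The call of Ccr2 was kept without RANKL-deficient array 3 and lost without any other single array.

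Differences were small for most members. Of the 52 genes, 37 had a difference above 0 and 15 below, and 24 differed by less than 0.2 in either direction. Their median difference was 0.13, while that of all genes was −0.054 and only 39.5% of all genes had a difference above 0. Genes with a mean above the median gene, as most members had, showed a median difference of 0.033 and were above 0 in 54.7% of cases, and the 46 members at that level were above 0 in 69.6%. The median 95% confidence interval of a member reached 0.57 log2 units to either side. A change of that size in a single lysosomal gene would thus often not have been detectable with 3 arrays a group, even without adjustment. The adjusted threshold asks for more: the difference of 1.72 for Ppt2 did not pass it (adjusted p = 0.245 in limma).

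**Figure D1:**
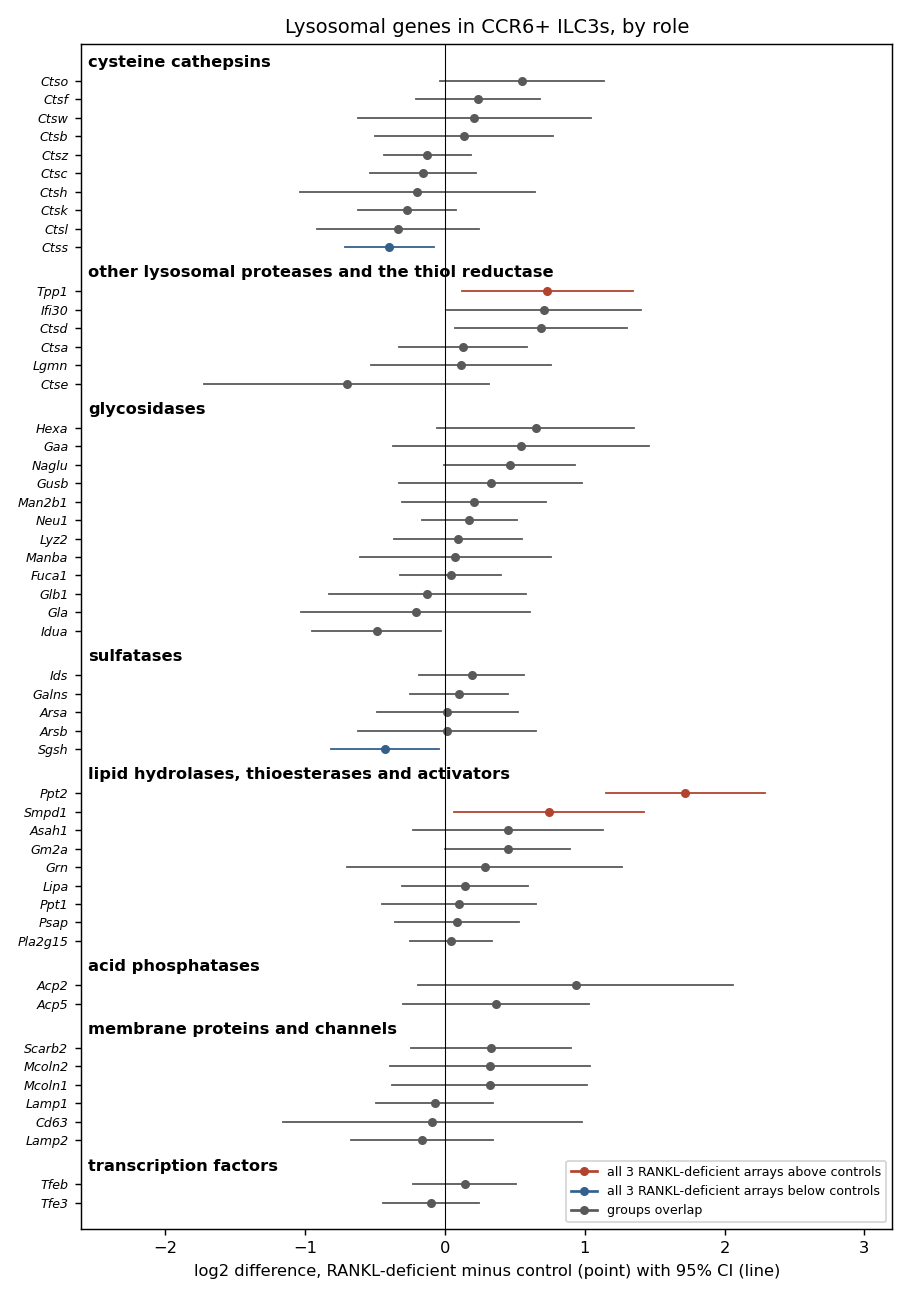
Log2 difference (RANKL-deficient minus control, x axis) of the 52 lysosomal genes with 95% confidence intervals from limma, in blocks by role. Ppt2 stands alone at 1.72, while most points lie between −0.5 and 0.75 with intervals that cross 0.

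A shared promoter element was looked for first, since the TFEB and TFE3 programme is defined by it. RefSeq promoters of assembly GRCm38.p6 (250 bases before to 50 after the start) were available for 46 of the 52 genes. The palindromic core CACGTG, which reads alike on both strands, was present in 15 of these 46 genes (32.6%), against 8.09% of 27025 genes with a promoter entry. The longer form GTCACGTG, searched on both strands and always overlapping the core, was present in 11 of 46 (23.9%, against 2.55%), and the palindrome TCACGTGA, which also holds the core, in 5 of 46 (10.9%, against 1.12%). Base composition differed as well, with a median GC content of 57.0% in these genes and 52.8% over all genes, and its part in the motif share was not tested. A match of letters is a description and not evidence of binding.

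The stretches below show the core in capitals with its flanks, 5′ to 3′ on the gene's strand, for members from several role groups, with 1 copy shown where a gene held more. Ctsd, Ifi30 and Sgsh were under an unadjusted p of 0.05 without passing the adjusted threshold, and Naglu, Mcoln1 and Lamp1 had differences whose intervals cross 0. The Ctsd stretch lies at chr7:142387910-142387935, minus strand, 98 bases before the start, and that of Ifi30 at chr8:70766844-70766869, minus strand. The Sgsh stretch lies at chr11:119355524-119355549, minus strand, 29 bases before the start, and that of Naglu at chr11:101070011-101070036, plus strand. The Mcoln1 stretch lies at chr8:3500464-3500489, plus strand, and that of Lamp1 at chr8:13159123-13159148, plus strand.
Ctsd: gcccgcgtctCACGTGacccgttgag
Ifi30: ccaaaaacttCACGTGaccagacatg
Sgsh: gcctgccgtgCACGTGaccgtgggga
Naglu: accttcaggtCACGTGgcccgaggtc
Mcoln1: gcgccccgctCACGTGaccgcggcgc
Lamp1: tgccgactggCACGTGaccacatcac

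Differences by element depended on the form searched. The 15 genes with the core had a median difference of 0.13 (10 of 15 above 0), and the 31 without it had a median of 0.14 (23 of 31 above 0). With GTCACGTG the medians were 0.12 in the 11 genes that held it (7 above 0) and 0.14 in the 35 that did not (26 above 0). With TCACGTGA they were 0.32 in 5 genes (4 above 0) and 0.12 in the other 41 (29 above 0). Lamp1 held 4 copies of the core in its window, while the 5 promoter entries of Ppt2 and the entries of Tpp1, Smpd1 and Ctss held none in theirs.

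Whole promoters of Ctsd and Ctss are shown as the contrast between a member with the element and one without it. The Ctsd promoter (chr7:142387778-142388077, minus strand) holds the core at 2 places, in capitals, and the Ctss promoter (chr3:95526536-95526835, plus strand) holds it nowhere in this window.
Ctsd: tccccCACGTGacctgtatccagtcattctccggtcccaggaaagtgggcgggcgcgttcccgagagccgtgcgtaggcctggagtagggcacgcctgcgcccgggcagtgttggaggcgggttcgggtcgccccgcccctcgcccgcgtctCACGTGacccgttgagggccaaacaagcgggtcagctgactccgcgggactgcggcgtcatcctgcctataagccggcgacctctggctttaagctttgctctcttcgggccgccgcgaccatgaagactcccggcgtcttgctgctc
Ctss: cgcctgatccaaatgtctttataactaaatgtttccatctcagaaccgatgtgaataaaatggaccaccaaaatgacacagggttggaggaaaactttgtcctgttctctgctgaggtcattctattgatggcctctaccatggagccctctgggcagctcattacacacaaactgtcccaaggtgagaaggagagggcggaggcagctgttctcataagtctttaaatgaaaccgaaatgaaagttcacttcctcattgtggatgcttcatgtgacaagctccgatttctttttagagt

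For the regulators themselves, no difference was detectable. Tfeb, the transcription factor that moves into the nucleus when lysosomes are stressed or nutrients are scarce, had log2 values of 5.98, 5.71 and 5.93 on the RANKL-deficient arrays, against 5.62, 5.60 and 5.98 on the control arrays. These groups overlapped, with a difference of 0.14 (95% confidence interval −0.23 to 0.51). Tfe3, its close relative, had 6.35, 6.51 and 6.65 on the RANKL-deficient arrays, against 6.63, 6.74 and 6.43 on the control arrays, and its groups overlapped too, with a difference of −0.098 (interval −0.44 to 0.24). TFEB and TFE3 are regulated largely by their location in the cell, which expression arrays do not measure. Without control arrays 1 and 2, the sign of both turned (−0.10 for Tfeb and 0.071 for Tfe3).

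Lipid hydrolases, thioesterases and their helpers had differences above 0 in 9 of 9 cases (median 0.29), against 39.5% of all genes and 54.7% of genes above the median gene. Of the 9, 3 lay under an unadjusted p of 0.05 (33.3%, against 8.15% of all genes), none passed the adjusted threshold, and Ppt1, Lipa, Pla2g15, Psap and Grn turned below 0 when some 1 array was left out. Ppt2, a thioesterase that cleaves fatty acyl groups, differed most. Its log2 values were 7.34, 8.21 and 7.86 on the RANKL-deficient arrays, against 6.14, 5.83 and 6.29 on the control arrays. All 3 RANKL-deficient arrays were higher, and the difference of 1.72 (SE 0.24), a 3.29-fold higher level, stayed between 1.52 and 1.95 when any 1 array was left out (limma adjusted p = 0.245 with all arrays). Its relative Ppt1, the thioesterase that removes palmitate from proteins and is lost in infantile Batten disease, had a difference of 0.10 (interval −0.45 to 0.65). Of 3 genes near Ppt2 on chromosome 17, looked up after the value of Ppt2 was seen, Egfl8 differed by −0.16, Prrt1 by −0.097 and Agpat1 by 0.36, all with intervals that cross 0.

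Smpd1, the acid sphingomyelinase that makes ceramide, had log2 values of 6.70, 7.77 and 6.82 on the RANKL-deficient arrays, against 6.28, 6.21 and 6.56 on the control arrays. The groups did not overlap, but RANKL-deficient array 2 lay far above the other arrays, and the difference of 0.75 (SE 0.29, adjusted p = 0.597) was 0.41 without that array. Gm2a, the activator that presents GM2 ganglioside for cleavage, had 10.36, 10.23 and 9.90 on the RANKL-deficient arrays, against 9.82, 9.92 and 9.41 on the control arrays. Control array 2 lay just above RANKL-deficient array 3, and the difference was 0.45 (SE 0.19, adjusted p = 0.61). Asah1, the acid ceramidase, differed by 0.45 and Lipa, which splits cholesteryl esters and triglycerides, by 0.14. Psap, the precursor of the saposins, differed by 0.085, Pla2g15, the lysosomal phospholipase A2, by 0.045 and Grn, progranulin, by 0.29, all with intervals that cross 0. Grn was among the most scattered members, with 8.11, 9.48 and 8.94 on the RANKL-deficient arrays, against 9.24, 8.41 and 8.02 on the control arrays.

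**Figure D2:**
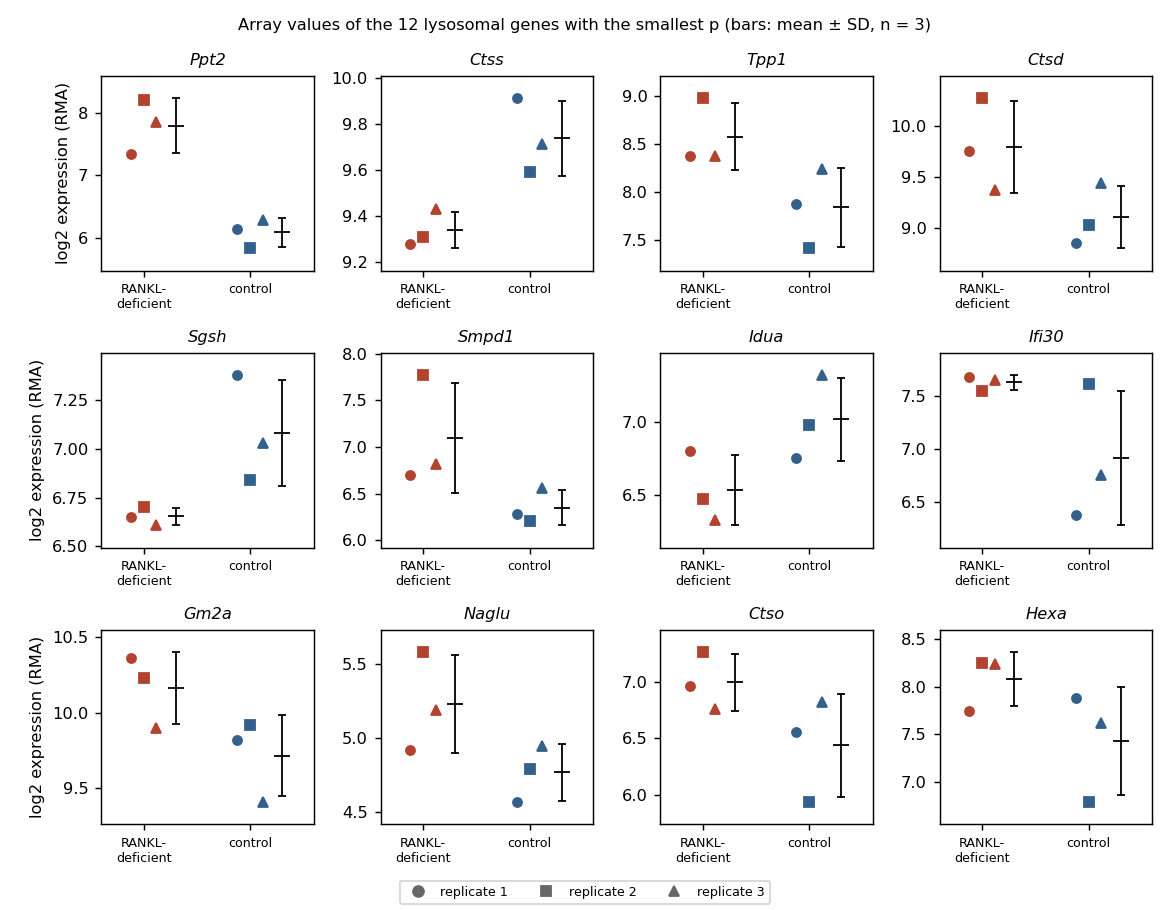
Log2 expression (y axis, a separate scale in each panel) on each array for the 12 lysosomal genes with the smallest p, RANKL-deficient arrays left of control arrays, with symbols for the replicate number and bars for the mean ± SD (n = 3). The groups are apart for Ppt2, Ctss, Tpp1, Sgsh and Smpd1, and RANKL-deficient array 2 is the highest point for Ppt2, Tpp1, Ctsd, Smpd1, Naglu, Ctso and Hexa.

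Of the cysteine cathepsins, 4 of 10 (40.0%) had a difference above 0, against 39.5% of all genes and 54.7% of genes above the median gene. Their median was −0.14, and 2 of the 10 lay at or below the median gene. Ctss, cathepsin S, which trims the invariant chain from MHC class II molecules in antigen-presenting cells, had 9.28, 9.31 and 9.43 on the RANKL-deficient arrays, against 9.91, 9.59 and 9.71 on the control arrays. Every RANKL-deficient array was lower than every control array, by a small and even margin, with a difference of −0.40 (SE 0.13, limma adjusted p = 0.564) that ranged from −0.47 to −0.31 when 1 array was left out. Ctsl, cathepsin L, had 7.14, 7.03 and 7.87 on the RANKL-deficient arrays, against 7.65, 7.48 and 7.92 on the control arrays, and its groups overlapped, RANKL-deficient array 3 lying with the controls (difference −0.33, interval −0.91 to 0.25). Ctsb, cathepsin B, had 8.54, 8.74 and 8.73 on the RANKL-deficient arrays, against 7.90, 8.78 and 8.92 on the control arrays. Its control array 1 stood well below the other 5 arrays, and its difference of 0.14 turned to −0.18 without that array and to −0.25 without control arrays 1 and 2.

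Ctso measured 6.96, 7.26 and 6.76 on the RANKL-deficient arrays, against 6.56, 5.94 and 6.82 on the control arrays, with control array 2 low and a difference of 0.55 (SE 0.25) that was 0.17 without control arrays 1 and 2. Ctsk, the collagen-cleaving cathepsin of osteoclasts, had 3.68, 4.10 and 3.87 on the RANKL-deficient arrays, against 4.27, 4.08 and 4.11 on the control arrays. This is below the median gene on all 6 arrays, and its groups overlapped (difference −0.27, interval −0.62 to 0.083). The remaining members were Ctsf at 0.24, the lymphocyte cathepsin Ctsw at 0.21, the carboxypeptidase Ctsz at −0.12, Ctsc, which activates granule proteases, at −0.15, and the aminopeptidase Ctsh at −0.20. None of their intervals left out 0, and Ctsf turned to −0.16 and Ctsc to 0.026 without control arrays 1 and 2.

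Of the 6 proteases of other classes and the thiol reductase, 3 were higher at an unadjusted p under 0.05 (50.0%, against 4.25% of all genes and 7.82% of genes above the median gene), none of them past the adjusted threshold. Tpp1, the tripeptidyl peptidase lost in late infantile Batten disease, had 8.38, 8.98 and 8.38 on the RANKL-deficient arrays, against 7.88, 7.42 and 8.24 on the control arrays. The groups did not overlap, by a narrow gap, and the difference of 0.73 (SE 0.26, adjusted p = 0.582) was 0.34 without control arrays 1 and 2. Ctsd, cathepsin D, the main aspartic protease of the lysosome, had 9.75, 10.27 and 9.37 on the RANKL-deficient arrays, against 8.85, 9.03 and 9.44 on the control arrays. RANKL-deficient array 3 lay below control array 3, so the groups overlapped, and the difference of 0.69 (SE 0.26, adjusted p = 0.593) was 0.35 without control arrays 1 and 2. Ifi30, the interferon-induced thiol reductase that opens disulfide bonds of antigens, had 7.68, 7.55 and 7.65 on the RANKL-deficient arrays, against 6.38, 7.61 and 6.76 on the control arrays. The RANKL-deficient arrays were tightly grouped while the control arrays spread widely, control array 2 lying among the RANKL-deficient arrays, and the difference was 0.71 (SE 0.29, adjusted p = 0.607).

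Ctse, an endosomal aspartic protease, had the largest lower difference of the set, −0.70, but not one that separated the groups. Its values were 6.83, 6.78 and 6.56 on the RANKL-deficient arrays, against 6.37, 8.22 and 7.68 on the control arrays, with control array 1 the lowest of all 6 and the other control arrays the highest, so that its interval ran from −1.72 to 0.32. Ctsa, the carboxypeptidase that protects beta-galactosidase and neuraminidase in a complex, differed by 0.13. Its partners Glb1 and Neu1 differed by −0.12 and 0.18, and Lgmn, the asparaginyl endopeptidase, by 0.12. The interval of each of these 4 crossed 0.

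Among the 12 glycosidases, 9 were above 0 (75.0%, against 39.5% of all genes and 54.7% of those above the median gene). Their median was 0.14. Idua was the 1 that lay under an unadjusted p of 0.05 (8.33%, against 8.15% of all genes). Idua, which removes iduronic acid from heparan and dermatan sulfate, had 6.80, 6.47 and 6.33 on the RANKL-deficient arrays, against 6.75, 6.98 and 7.32 on the control arrays. RANKL-deficient array 1 lay just above control array 1, and the difference was −0.48 (SE 0.20, adjusted p = 0.603). Naglu, which acts on heparan sulfate too, had 4.92, 5.58 and 5.19 on the RANKL-deficient arrays, against 4.57, 4.79 and 4.95 on the control arrays. It lay just below the median gene and had a difference of 0.46 (interval −0.0052 to 0.93). Hexa, the hexosaminidase chain that cleaves GM2 ganglioside together with the Gm2a product, had 7.75, 8.25 and 8.24 on the RANKL-deficient arrays, against 7.88, 6.79 and 7.62 on the control arrays. Control array 2 was far below the rest, and the difference of 0.65 (SE 0.30) was 0.33 without it.

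Lyz2, lysozyme, best known from macrophages, had 6.20, 6.51 and 6.88 on the RANKL-deficient arrays, against 6.36, 6.33 and 6.60 on the control arrays, with groups that overlapped fully and a difference of 0.096 (interval −0.36 to 0.55). The sugar-chain enzymes left had differences from −0.21 to 0.55. Gaa, acid alpha-glucosidase, was the highest of these, but its control array 1 (5.82) lay far below the other 5 arrays (7.12 to 7.52), and without control arrays 1 and 2 its difference was −0.015. Gusb, beta-glucuronidase, differed by 0.33, the mannosidases Man2b1 and Manba by 0.21 and 0.076, Fuca1, a fucosidase, by 0.043 and Gla, alpha-galactosidase A, by −0.21.

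Of the 5 sulfatases, Sgsh was the 1 under an unadjusted p of 0.05. It cleaves sulfate from heparan sulfate and had 6.65, 6.70 and 6.61 on the RANKL-deficient arrays, against 7.38, 6.84 and 7.03 on the control arrays. The RANKL-deficient arrays lay together below all control arrays, of which control array 1 was the highest, with a difference of −0.43 (SE 0.16, adjusted p = 0.593) that was −0.37 without control arrays 1 and 2. The other sulfatases, Ids, Galns, Arsa and Arsb, had differences of 0.19, 0.10, 0.018 and 0.016. Arsb was scattered in RANKL-deficient cells (7.99, 8.50 and 9.11, against 8.59, 8.47 and 8.50 in control cells), and its second probe set gave a difference of 0.27.

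The acid phosphatases were both above 0 without passing. Acp2, the lysosomal acid phosphatase, had 7.28, 6.55 and 6.74 on the RANKL-deficient arrays, against 5.71, 5.05 and 7.02 on the control arrays. Control array 3 lay among the RANKL-deficient arrays while control arrays 1 and 2 were low, and the difference of 0.94 (SE 0.48) became −0.16 without those arrays. Acp5, the TRAP enzyme that marks osteoclasts, differed by 0.37 (interval −0.30 to 1.03) and by 0.049 without control array 1.

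Membrane proteins of the lysosome showed no shared direction, with 3 of 6 above 0 (50.0%, against 39.5% of all genes). None lay under an unadjusted p of 0.05. Lamp1 had 9.89, 10.04 and 10.49 on the RANKL-deficient arrays, against 10.19, 10.17 and 10.27 on the control arrays, and the RANKL-deficient arrays spread on both sides of the tightly grouped control arrays (difference −0.072, interval −0.49 to 0.34). Lamp2, which also serves chaperone-mediated autophagy, had 8.45, 8.33 and 8.50 on the RANKL-deficient arrays, against 8.31, 9.07 and 8.39 on the control arrays. Control array 2 was the highest, the groups overlapped, and the difference was −0.17 (interval −0.67 to 0.34). Scarb2, the receptor that carries glucocerebrosidase to the lysosome, differed by 0.33, and the cation channels Mcoln1 and Mcoln2 by 0.32 and 0.32. Cd63, a tetraspanin of late endosomes, was the most scattered member in RANKL-deficient cells (7.44, 9.25 and 8.29, against 8.30, 8.92 and 8.03 in control cells) and differed by −0.091.

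**Figure D3:**
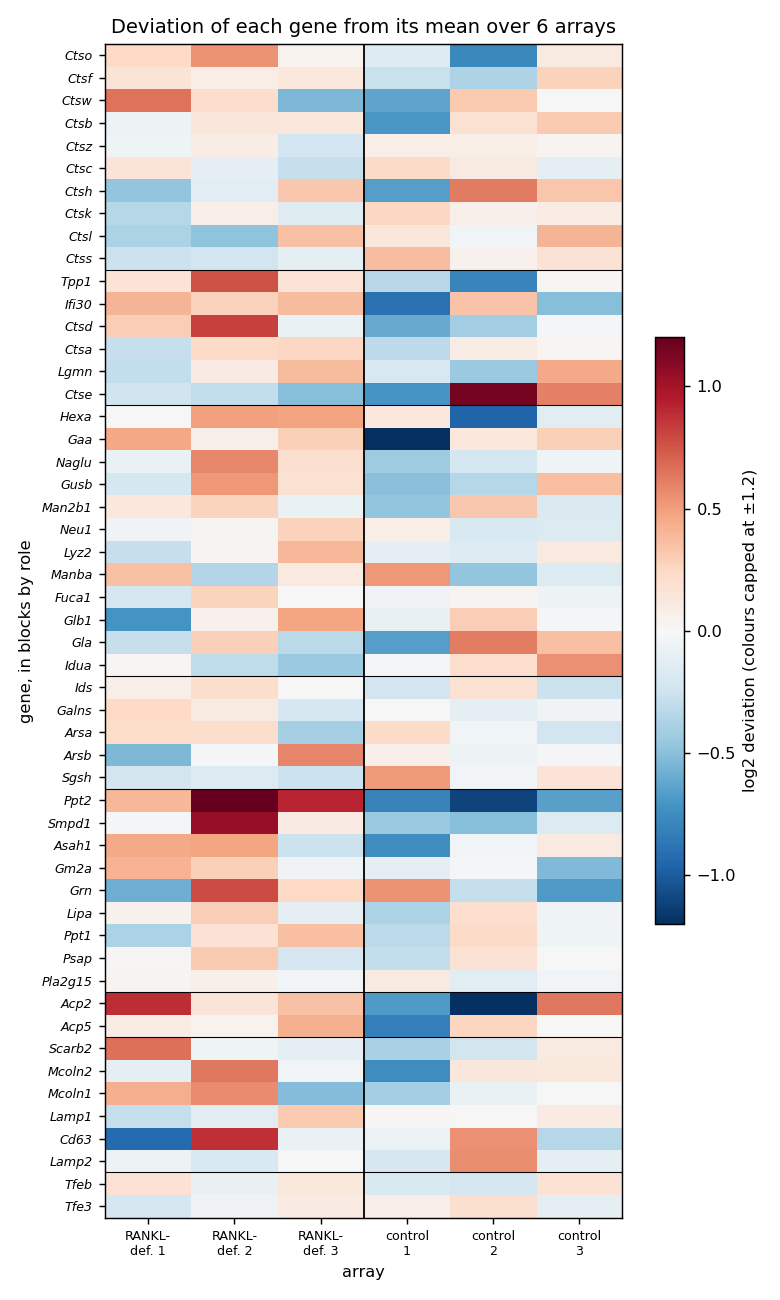
Deviation of each lysosomal gene (rows, in blocks by role in the order of the forest plot) from its own mean over the 6 arrays, in log2 units, with RANKL-deficient arrays left of control arrays. Control array 1 holds many of the blue cells and RANKL-deficient array 2 many of the red ones, as the counts by array state.

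The arrays contributed unequally to these values. RANKL-deficient array 2 held the highest value for 18 of the 52 genes, and the other RANKL-deficient arrays for 8 each. Over all genes, RANKL-deficient arrays 1, 2 and 3 were highest for 11.6%, 11.6% and 11.9%. Control array 1 was highest for 7 of the 52, against 33.4% of all genes. Control array 1 held the lowest value for 19 of the 52 (36.5%, against 17.9% of all genes). Control array 2 did so for 12, against 14.7% of all genes, and control array 3 for 3, against 17.0%. The median deviation of the members from their own means was −0.015, 0.15 and 0.069 on the RANKL-deficient arrays, against −0.21, −0.015 and −0.001 on the control arrays. Over all genes above the median gene, as most members were, control array 1 was also the lowest, at −0.065. Over genes at or below the median gene it was the highest, at 0.141, so the shares over all genes given here mix both kinds. Control array 1, the array with the narrowest spread of values, thus lay furthest down, and without it the median difference of the members was 0.050, while that of all genes was −0.025. Without control arrays 1 and 2 the median difference of the members was 0.057, while that of all genes was 0.00059. The part of array quality in the results was not tested beyond these fits.

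**Figure D4:**
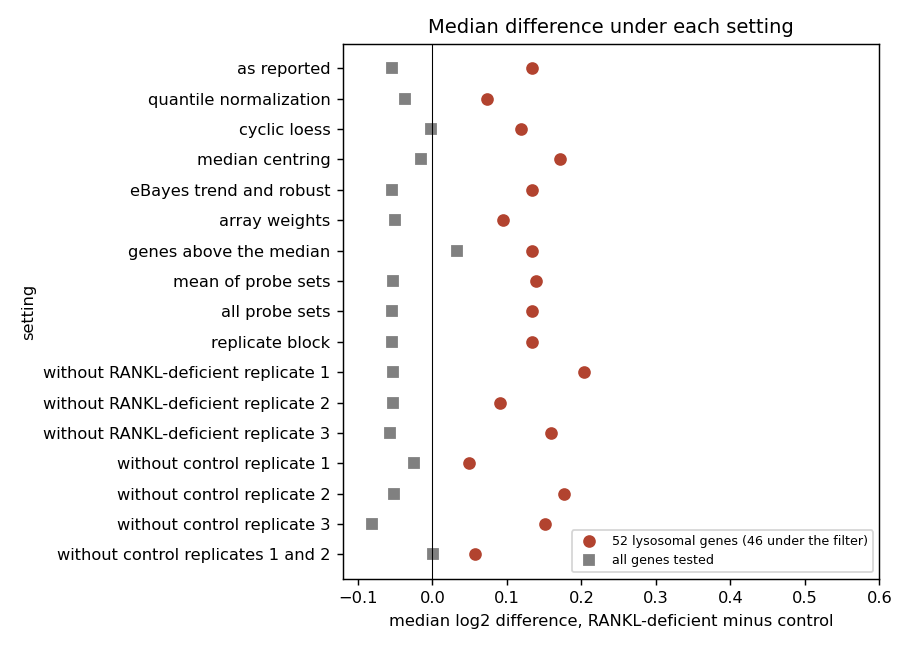
Median log2 difference (RANKL-deficient minus control, x axis) of the lysosomal genes (circles) and of all genes tested (squares) as reported and under 16 alternatives (rows). The lysosomal median stays above 0 and above that of all genes throughout, from 0.050 to 0.20, and is lowest without control array 1.

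Other genes of the lysosomal system were measured in the same fit from 6 lists, of which 114 of 125 genes had a probe set of their own. These lists, too, were drawn up with earlier results of these data known. None passed the adjusted threshold (lowest adjusted p = 0.423), 9 were higher and 3 lower at an unadjusted p under 0.05 (7.89% and 2.63%, against 4.25% and 3.9% of all genes, and 7.82% and 3.87% of those above the median gene, while 20 of the 114 lay at or below it), and their median difference was 0.047. The genes named from each list are the 3 with the smallest p, whatever their direction. The vacuolar ATPase is the proton pump that acidifies the lysosome. Of 19 subunits measured, 12 were above 0 (63.2%, against 39.5% of all genes and 54.7% of those above the median gene). The subunits had a median difference of 0.29. At an unadjusted p under 0.05, 3 were higher (15.8%, against 4.25% of all genes) and 1 lower (5.26%, against 3.9%). Among genes above the median gene these shares were 7.82% and 3.87%. Atp6v1e1 measured 7.52 ± 0.21 in RANKL-deficient and 6.99 ± 0.27 in control cells (SD, n = 3 each), and Atp6v1d measured 8.85 ± 0.05 in RANKL-deficient and 8.49 ± 0.11 in control cells (SD, n = 3 each). The membrane subunit Atp6v0a1 measured 3.93 ± 0.32 in RANKL-deficient and 4.65 ± 0.30 in control cells (SD, n = 3 each), on the other side.

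Among other hydrolases and cofactors (15 measured, median 0.11), Acpp, an acid phosphatase, had 8.0, 7.98 and 7.60 on the RANKL-deficient arrays, against 6.21, 7.01 and 7.14 on the control arrays, a difference of 1.07 (SE 0.26, adjusted p = 0.423) with no overlap. Sumf1, the enzyme that activates all sulfatases, had 4.93, 5.40 and 5.20 on the RANKL-deficient arrays, against 5.71, 6.50 and 5.95 on the control arrays. It was lower on every RANKL-deficient array, with a difference of −0.88 (SE 0.23, adjusted p = 0.438), and Plbd2 differed by 0.46. Of 27 other membrane proteins (median −0.064), Ostm1, the partner of the chloride exchanger CLC-7, had 7.65, 8.0 and 7.80 on the RANKL-deficient arrays, against 6.13, 7.05 and 7.05 on the control arrays. All RANKL-deficient arrays were higher (difference 1.08, SE 0.27, adjusted p = 0.423), and Ctns, the cystine exporter, and Lamp5 differed by 0.61 and −0.29.

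The sorting machinery (25 measured) had a median of −0.011. Gnptg, a subunit of the enzyme that makes the mannose 6-phosphate tag, measured 8.13 ± 0.29 in RANKL-deficient and 7.43 ± 0.35 in control cells (SD, n = 3 each), clathrin heavy chain Cltc differed by 0.35 and Ap1s1 by 0.59. Of 7 cathepsin inhibitors, Cstb, cystatin B, measured 9.79 ± 0.08 in RANKL-deficient and 9.36 ± 0.12 in control cells (SD, n = 3 each), with no overlap. Cst7, cystatin F, an inhibitor found in granules of lymphocytes, differed by −0.93 and Ctla2a by −0.57. Among 21 genes of TFEB control and lysosomal mTORC1 signalling (median 0.15), 15 were above 0 (71.4%, against 39.5% of all genes). Genes above the median gene were above 0 in 54.7% of cases. Lamtor4, a subunit of the Ragulator scaffold, had 8.42, 8.14 and 8.84 on the RANKL-deficient arrays, against 6.43, 7.49 and 7.85 on the control arrays. All RANKL-deficient arrays were higher, control array 1 was the lowest by far, and the difference was 1.21 (SE 0.37, adjusted p = 0.517). Lamtor2 and the calcineurin subunit Ppp3r1 differed by 0.93 and 0.57.

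Markers of other cells that a sort could hold were read beside these values, since macrophages and dendritic cells are rich in lysosomal enzymes. The macrophage and monocyte list (13 of 15 markers measured) had a mean log2 level of 4.85 to 5.21 on the RANKL-deficient arrays and 5.10 to 5.32 on the control arrays, and 5 of the 13 lay at or below the median gene. None of these markers passed the adjusted threshold, and Adgre1, the F4/80 antigen, was the 1 under an unadjusted p of 0.05, at 4.01, 4.01 and 4.37 on the RANKL-deficient arrays, against 4.76, 4.34 and 4.91 on the control arrays. The list had 5 of 13 differences above 0 and a median of −0.16, from −0.64 for Cd14 and −0.57 for Fcgr1 to 0.29 for the complement gene C1qa and 0.31 for Cx3cr1. Single markers lay well above the mean of the list: C1qc had 7.58, 7.76 and 7.86 on the RANKL-deficient arrays, against 7.17, 8.36 and 7.20 on the control arrays. C1qb had 5.95, 7.41 and 6.44 on the RANKL-deficient arrays, against 6.10, 7.06 and 6.50 on the control arrays. Of 8 dendritic cell markers, all measured, 6 lay at or below the median gene. The 8 averaged 4.45 to 4.59 on the RANKL-deficient arrays and 4.42 to 4.75 on the control arrays. Their median difference was −0.12, with 3 of 8 above 0, from −0.26 for Xcr1 to 0.39 for Itgax. Itgax was higher on every RANKL-deficient array (adjusted p = 0.611 in limma). T cell markers (8 of 8 measured, 5 of them at or below the median gene) averaged 4.71 to 4.99 on the RANKL-deficient arrays, against 4.87 to 5.32 on the control arrays. Their median difference was −0.089, with 1 of 8 above 0. Cd3g, the most extreme, had 5.26, 4.20 and 4.89 on the RANKL-deficient arrays, against 7.32, 6.93 and 5.82 on the control arrays. Its difference was −1.91 (adjusted p = 0.408 in limma). Cd3e differed by −0.70, Cd5 by −0.18, Bcl11b by −0.15, Cd28 by −0.028, Cd8b1 by −0.0098, Cd8a by −0.0044 and Cd3d by 0.26. ILC1 and NK markers (6 of 6 measured, 5 at or below the median gene) averaged 4.22 to 4.44 on the RANKL-deficient arrays and 4.42 to 4.87 on the control arrays, and Ncr1 had 3.76, 3.92 and 3.64 on the RANKL-deficient arrays, against 4.37, 5.57 and 4.15 on the control arrays, lower on every RANKL-deficient array (difference −0.93, adjusted p = 0.597 in limma). Mast cell and granulocyte markers (9 of 9 measured, 8 at or below the median gene) averaged 3.63 to 3.76 on the RANKL-deficient arrays and 3.73 to 3.95 on the control arrays, with 0 of 9 differences above 0, against 24.4% of all genes at or below the median gene. Differences above 0 numbered 3 of 7 for B and plasma cell markers (median −0.096) and 2 of 11 for epithelium (median −0.15). For stroma and endothelium there was 1 of 9 (median −0.13), and over all genes 39.5% were above 0. None of the markers in these lists passed the adjusted threshold. Among B and plasma cell markers, Mzb1 lay under an unadjusted p of 0.05 (1 of 7, 14.3%, against 8.15% of all genes). It was higher on every RANKL-deficient array (difference 0.34), while Cd79b differed by −0.34. At or below the median gene lay 4 of the 7, 5 of the 11 and 3 of the 9. Others lay well above it, such as Jchain (mean 8.08 in RANKL-deficient and 7.92 in control cells) and Krt8 (6.90 and 7.15). Fabp2 (6.88 and 7.03), Dcn (7.68 and 8.09) and Pecam1 (7.87 and 8.11) did too. In sorted bulk cells, a change in the number of such cells and a change in RNA per cell cannot be told apart, arrays give no true zero, and the part of other cells in the lysosomal values was not tested.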

How the data were processed

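The deposited table holds log2 values for 35556 probe sets on each of 6 arrays. Per the submitters' processing notes, the authors used RMA and Affymetrix Expression Console. A genome build is not given in the sources used here. RMA normally equalises probe intensities across arrays, which would hide a change common to most genes, but the deposited values still differed in spread (SD over genes 1.86 to 2.01). RNA was amplified from 2 ng, per the labels' protocols, which can widen scatter.

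The platform annotation named the probe sets (21789 with 1 symbol, 1621 with several, 12146 with none). Symbols were updated by Entrez identifier against RefSeq GRCm38.p6 (19855 of 19938 genes matched), and genes were reduced to the probe set with the highest mean, with no filter on low values. The comparison used limma (version 3.58.1, R 4.3.3) with lmFit and eBayes, two-sided and without a block, and Benjamini-Hochberg adjustment over all 19938 genes. The procedure was tested on simulated data. Members and lists were chosen with earlier results of these data known. Array values are given for the 14 members with the smallest p, for Tfeb, Tfe3, Lamp1, Lamp2, Ctsb, Ctsd, Ctsl, Ctss and Lyz2, and for a few scattered members (Ctse, Grn, Arsb and Cd63) chosen after their values were seen. Motif searches used exact matches. The 16 alternatives changed the normalization, the model, the filter, the probe sets or the arrays used.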

Additional observations from a re-analysis of the deposited data

How the results depend on the processing

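No lysosomal gene and none of the other lysosomal genes passed the adjusted threshold in any of the 16 alternatives, and Ppt2 came nearest, with adjusted p from 0.134 upwards. The median difference of the members stayed above 0, from 0.050 to 0.20. Over all genes, the count past the threshold was 2 with the trend and robust options (Ccr2 and Cd36). It was 0 with all probe sets, with the replicate block and without control arrays 1 and 2, and 0 to 1 when 1 array was left out (1 without RANKL-deficient array 3). The higher members at an unadjusted p under 0.05 numbered 3 with all probe sets. When 1 array was left out they numbered 1 to 9, with 1 without RANKL-deficient array 2 and 9 without control array 3. The lower ones numbered 1 with the trend and robust options, 1 among genes above the median, 1 with the replicate block and 0 to 3 when 1 array was left out. With the block, 4 were higher. Without control arrays 1 and 2, every RANKL-deficient array lay above the lone control array for 12 members and below it for 11. Fewer arrays make this easier, and the fit assumes that the lone control array varies like the other group. When 1 array was left out, the counts were 5 to 11 above and 2 to 7 below. Shares of all genes under these settings are not given here, for these counts or for those at an unadjusted p. The member counts therefore cannot be read against a background. The labels do not say whether same-numbered arrays belong together. Their deviations from the group means correlated at −0.023, 0.050 and 0.027 over genes, for numbers 1, 2 and 3. RANKL-deficient arrays 2 and 3 correlated best with the control array of their own number, array 3 only narrowly, and array 1 did not. With 3 arrays a group, such small correlations cannot decide whether the arrays were paired.

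Signs turned in 46 of 826 values, over 26 members with small or scattered differences. Without control arrays 1 and 2, they were −0.16 for Acp2, 0.30 for Cd63, −0.25 for Ctsb, 0.026 for Ctsc, −0.16 for Ctsf, −0.015 for Gaa, −0.19 for Gusb, 0.034 for Lamp2, −0.40 for Lgmn, −0.072 for Lyz2, 0.071 for Tfe3 and −0.10 for Tfeb. Quantile normalization gave −0.053 for Arsb, −0.024 for Fuca1 and −0.033 for Tnfsf11, and cyclic loess gave −0.078 for Arsb, −0.053 for Fuca1, −0.012 for Psap and −0.058 for Tnfsf11. Array weights gave −0.0034 for Ppt1. When 1 array was left out, the range was −0.078 to 0.18 for Tnfsf11, −0.090 to 0.23 for Arsa, −0.27 to 0.29 for Arsb, −0.55 to 0.35 for Cd63, −0.18 to 0.33 for Ctsb, −0.57 to 0.068 for Ctsh, −0.059 to 0.53 for Ctsw, −0.080 to 0.16 for Fuca1, −0.59 to 0.047 for Gla, −0.39 to 0.20 for Glb1, −0.031 to 0.65 for Grn, −0.25 to 0.054 for Lamp1, −0.31 to 0.074 for Lamp2, −0.078 to 0.37 for Lgmn, −0.0089 to 0.28 for Lipa, −0.079 to 0.26 for Lyz2, −0.14 to 0.35 for Manba, −0.015 to 0.11 for Pla2g15, −0.053 to 0.32 for Ppt1 and −0.051 to 0.21 for Psap. The cause of these turns was not tested.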
